A study of Capra hircus with 7 samples.

Results

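The genes described here build and crosslink elastic fibres: ELN, FBN1, FBN2, MFAP4, FBLN5, EFEMP2, LOX, LOXL1, LOXL2 and LOXL3. They are 10 of the 17374 genes in the table and were chosen by name, after goat gene identifiers had been matched to symbols. All 10 were measured in all 7 libraries, and 8 passed the filter on low values (at least 1 FPKM in at least 2 libraries). FPKM counts fragments per length of transcript and per depth of library, so levels of different genes can be set side by side. The libraries came from mammary gland cells of the Lanshan dairy goat grown in 3D culture and given virus. The groups were cKDmix (knockdown of cirRNA28250, a circular RNA; 2 libraries), c3NC (taken as its control; 2), cRNA28250 (overexpression; 2) and c5NC (set against the overexpression; 1). What the control names stand for is not in the labels, and the circular RNA itself was not analysed here.

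An elastic fibre has a core of crosslinked elastin that is laid on a scaffold of fibrillin microfibrils. Fibulins bring soluble elastin and the crosslinking enzymes to that scaffold. Lysyl oxidases, copper-dependent enzymes outside the cell, oxidise lysines of elastin and collagen so that the chains crosslink. In the mammary gland such fibres belong to the stroma and the vessel walls.

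The cultures carried the RNA of stromal cells. Of 10 fibroblast markers all 10 were tested, and their summed level was 13826 and 13115 FPKM in cKDmix, 21229 and 22483 FPKM in c3NC, 19881 and 18501 FPKM in cRNA28250 and 16668 FPKM in c5NC. Of 10 luminal epithelial markers 8 were measured and 1 was tested, ESR1, the estrogen receptor gene, at 17.6 to 22.8 FPKM over the libraries. KRT8, KRT18 and EPCAM, markers of that list picked after their values were seen, reached at most 0.28, 0.18 and 0.02 FPKM in any library. KRT19, picked likewise, reached 5.53 FPKM in c5NC. No endothelial marker measured passed 0.42 FPKM. The summed level of the 7 smooth muscle and myofibroblast markers was 1637 to 2732 FPKM in 6 libraries and 256 FPKM in c5NC. In bulk RNA, fewer cells of a type and less RNA per cell cannot be told apart. The median of all genes tested was 0.30 higher on the log2 scale in cKDmix than in c3NC, and 0.16 higher in cRNA28250 than in c5NC. The cRNA28250 replicates lay further apart than other replicates, with an SD of the log2 difference over all genes tested of 0.585, against 0.306 in cKDmix and 0.2998 in c3NC.

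ELN, the elastin gene itself, was close to 0 in every library. It was listed at 0.33 and 0.19 FPKM in cKDmix, 0.09 and 0.07 FPKM in c3NC, 0.26 and 0.25 FPKM in cRNA28250 and 0.04 FPKM in c5NC. FBN2, the fibrillin best known from developing tissue, was listed at 0.01 FPKM in both cRNA28250 libraries and at 0 in the other 5. Neither gene was tested. The genes for the scaffold and the crosslinking enzymes were far more abundant. Over the 7 libraries LOX averaged 253 FPKM, LOXL1 212, MFAP4 145, FBN1 97.0, LOXL2 72.7, EFEMP2 54.8, LOXL3 35.8 and FBLN5 3.93 FPKM. The plot of levels by library shows these 8 genes.

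**Figure D1:**
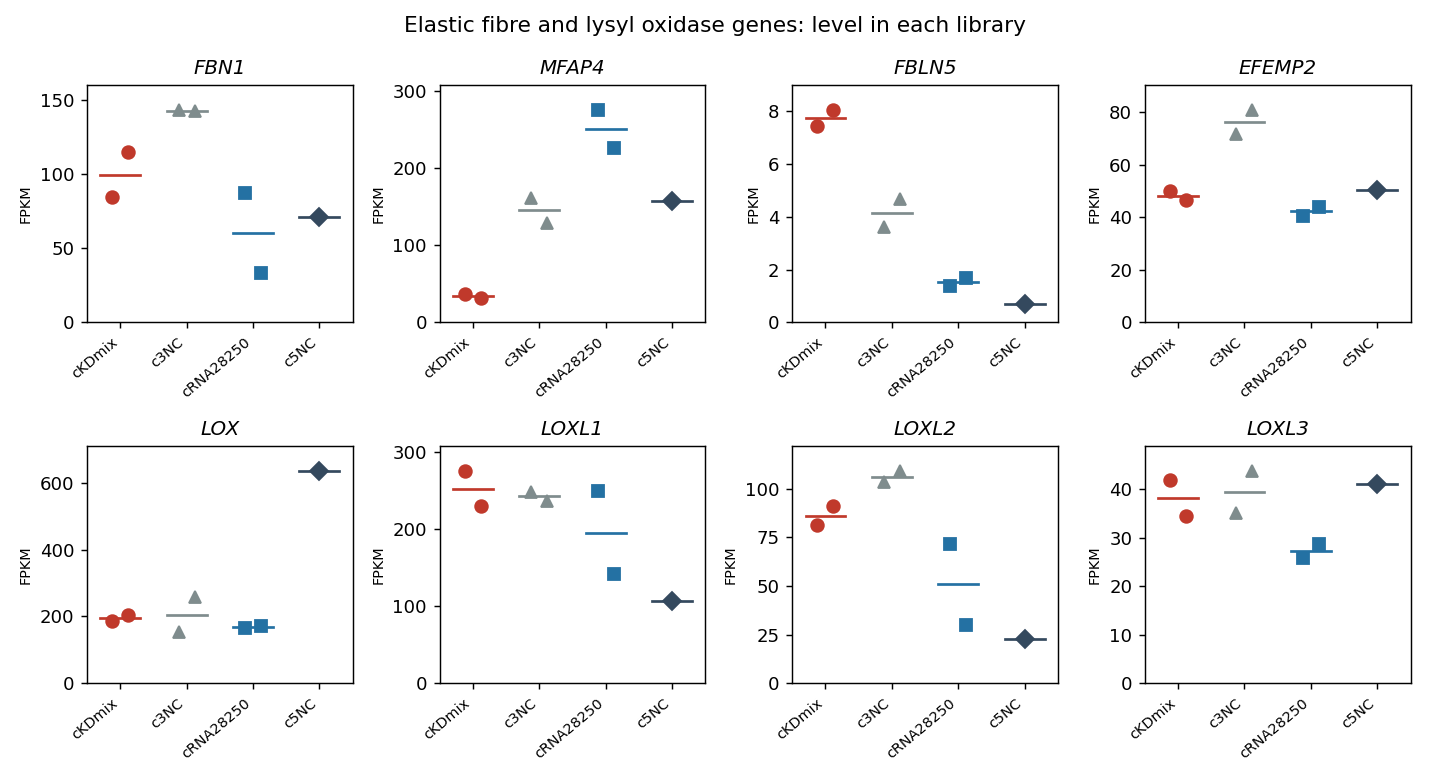
FPKM of the 8 members that passed the filter (vertical axes from 0, a scale of its own per gene) in each library, by group (cKDmix, c3NC, cRNA28250, c5NC); points are libraries and bars are group means. MFAP4 is lowest in cKDmix (31.2 and 37.1 FPKM), and LOX is highest in the 1 c5NC library (635 FPKM).

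Knockdown libraries, cKDmix, were set against c3NC to ask which of these genes change when cirRNA28250 is lowered. MFAP4 and EFEMP2 fell and FBLN5 rose, while the 4 lysyl oxidases and FBN1 were not called. A call is a limma p, adjusted by Benjamini and Hochberg over all genes tested, under 0.05. So 3 of the 8 tested members were called, where 34.4% of all genes tested were called in this comparison, a share near the members' own. By direction, 1 was higher (26.8% of all genes were) and 2 were lower (7.56%). The libraries of cKDmix and c3NC did not overlap in 5 members, which holds for 78% of all genes. The members' median log2 fold change was −0.17, against 0.30 over all genes tested, and 7 of 8 members lay below that median.

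MFAP4, a microfibril-associated glycoprotein that binds elastin and fibrillin, changed most in knockdown. It had 37.1 and 31.2 FPKM in the cKDmix libraries, against 162 and 129 FPKM in the c3NC libraries. The cKDmix libraries were also below both cRNA28250 libraries (275 and 226 FPKM) and below the c5NC library (157 FPKM). The mean was 34.2 ± 4.16 FPKM in cKDmix and 145 ± 22.7 FPKM in c3NC (SD, n = 2 each), 4.26-fold lower in cKDmix. The log2 fold change was −2.05 ± 0.22 (SE; limma adjusted p = 0.00245). Of all genes tested, 0.452% had a log2 fold change this low or lower. Without cKDmix replicate 2 the value was −1.93 and the call was lost (limma adjusted p = 0.0638; 1.35e-05 to 0.0638 over 14 alternatives). Of 10 fibroblast markers, 4 were called lower in cKDmix (7.56% of all genes tested were), 1 was called higher (26.8%) and 5 were not called. The part of these markers in the MFAP4 value was not tested.

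The fibulins moved in opposite directions. FBLN5, which encodes fibulin-5, a protein that tethers elastin to microfibrils and binds integrins, had 7.43 and 8.03 FPKM in cKDmix, against 3.61 and 4.67 FPKM in c3NC. Both cKDmix libraries were above both c3NC libraries. The log2 fold change was 0.77 ± 0.21 (limma adjusted p = 0.0255), or 0.47 above the median of all genes. EFEMP2, which encodes fibulin-4, needed in mice for elastic fibre assembly and for lysyl oxidase activity on elastin, had 50.1 and 46.4 FPKM in cKDmix, against 71.7 and 80.7 FPKM in c3NC. Both cKDmix libraries were below both c3NC libraries, and the level was 1.58-fold lower (log2 fold change −0.65 ± 0.18, limma adjusted p = 0.0276). The FBLN5 call was lost with quantile normalization (0.30, limma adjusted p = 0.282) and with median-ratio scaling (0.48, limma adjusted p = 0.106; 0.00179 to 0.282 over 14 alternatives). The calls of FBLN5 and EFEMP2 were lost when any 1 of the 4 libraries compared was left out, with limma adjusted p from 0.0768 to 0.187 for FBLN5 and from 0.103 to 0.182 for EFEMP2; over all 14 alternatives EFEMP2 spanned 0.00657 to 0.847. The highest came with c5NC as the control, where the log2 fold change of EFEMP2 was −0.064, with 48.3 FPKM in cKDmix and 50.5 FPKM in c5NC.

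FBN1, the fibrillin of adult microfibrils, had 84.5 and 115 FPKM in cKDmix, against 143 and 143 FPKM in c3NC. The cKDmix libraries were lower without overlap, but the log2 fold change of −0.53 ± 0.40 was not called (limma adjusted p = 0.334). It was called, at the same value, when either cRNA28250 library was left out and with only the libraries of cKDmix and c3NC. In the last of these fits (limma adjusted p = 0.0335) 54% of all genes tested were called, against 34.4% with all 7 libraries. Over 14 alternatives the log2 fold change ran from −0.88 to 0.46.

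None of the 4 lysyl oxidases was called in cKDmix against c3NC by limma, and none had an unadjusted p under 0.05. LOX, which crosslinks both elastin and collagen, had 188 and 205 FPKM in cKDmix, against 152 and 259 FPKM in c3NC, so the c3NC libraries enclosed those of cKDmix. Its log2 fold change was −0.02 with a 95% interval from −0.66 to 0.63. LOXL1, which works with fibulin-5 on elastin in mice, had 275 and 229.6 FPKM in cKDmix, against 248 and 236 FPKM in c3NC, with a log2 fold change of 0.054 and an interval from −0.62 to 0.73. LOXL3 had 41.9 and 34.3 FPKM in cKDmix, against 35.0 and 43.7 FPKM in c3NC, with a log2 fold change of −0.043 and an interval from −0.51 to 0.42. LOXL2, which crosslinks collagen IV among other substrates, had 81.2 and 91.0 FPKM in cKDmix, against 103 and 109 FPKM in c3NC. The cKDmix libraries of LOXL2 were lower without overlap, and its log2 fold change of −0.30 (interval −1.13 to 0.53) was not called (limma adjusted p = 0.538). These intervals do not show that the enzymes were unaffected. Against c5NC, which has 1 library, the log2 fold changes in cKDmix were −1.69 for LOX, 1.24 for LOXL1 and 1.89 for LOXL2. Those genes were called there, and LOXL3 (−0.11) was not. The calls of this family thus depend on the control.

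**Figure D2:**
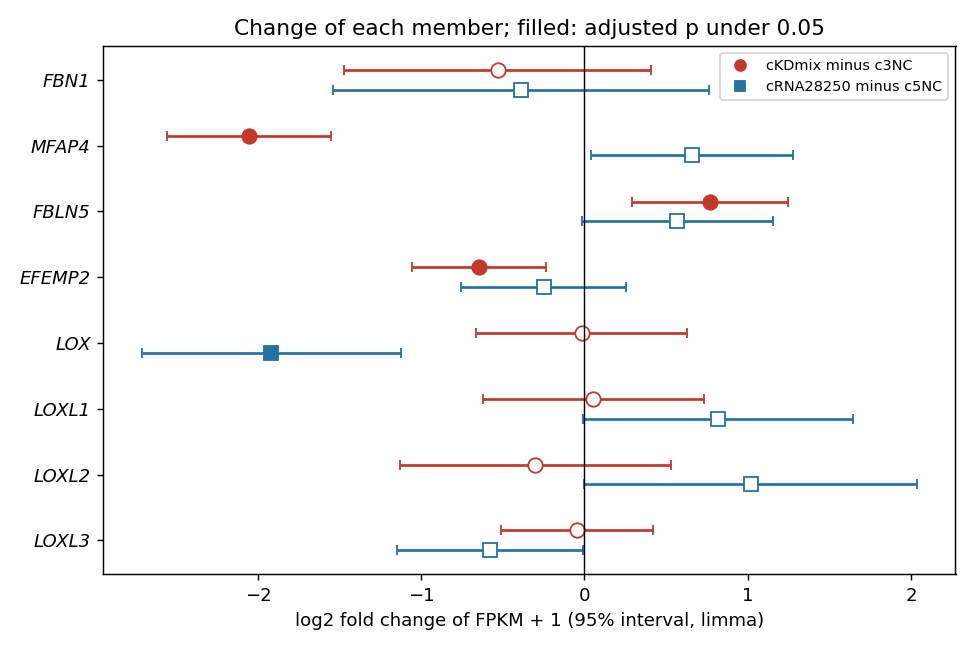
Log2 fold change of FPKM + 1 (horizontal axis) of the 8 tested members in cKDmix minus c3NC (red circles) and cRNA28250 minus c5NC (blue squares), with 95% intervals from limma; filled symbols have an adjusted p under 0.05. MFAP4, FBLN5 and EFEMP2 are filled in knockdown and LOX in overexpression.

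Overexpression libraries, cRNA28250, were set against c5NC to ask the same of a raised level of the circular RNA. LOX was lower, and the other 7 tested members were not called; 1 of 8 members, where 7.62% of all genes tested were called. The libraries of cRNA28250 did not overlap with the c5NC library in 7 members, as in 71.3% of all genes, with 4 higher and 3 lower. The members' median log2 fold change was 0.16, as was the median of all genes.

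LOX had 165 and 169.7 FPKM in the cRNA28250 libraries, against 635 FPKM in the c5NC library. It was 3.80-fold lower in cRNA28250, a log2 fold change of −1.92 ± 0.34 (SE; limma adjusted p = 0.0166). The c5NC library stood above all 6 others, the next highest being c3NC replicate 2 at 259 FPKM. The overexpression libraries (167 ± 3.48 FPKM) set against c3NC (205 ± 75.9 FPKM; SD, n = 2 each) had a log2 fold change of −0.25 ± 0.28 (limma adjusted p = 0.627; 0.00349 to 0.627 over 13 alternatives). The call was also lost without cKDmix replicate 1 or 2 (limma adjusted p = 0.0638 and 0.0621) and with only the libraries of cRNA28250 and c5NC (0.0819). The log2 fold change of LOX was still −1.92 in each of those fits, where the estimate of the spread and the set of genes tested changed. c5NC has 1 library, so what is particular to that library and to its group cannot be told apart. The same library had the lowest smooth muscle and myofibroblast sum. It held KRT14 at 4.22 FPKM and KRT19 at 5.53 FPKM, keratins of basal and luminal epithelium, picked after their values were seen. They reached at most 0.78 and 0.83 FPKM in the other 6 libraries. Of the other genes measured on those marker lists, KRT5 (0.53 FPKM) and GATA3 (0.04 FPKM) were also highest in c5NC. KRT8, KRT18, EPCAM, ELF5, ESR1, CSN3, TP63 and OXTR were not. The part of these differences in the LOX value was not tested.

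None of the other lysyl oxidases was called in overexpression. LOXL1 had 249 and 141 FPKM in cRNA28250, against 106 FPKM in c5NC, and LOXL2 had 71.6 and 30.1 FPKM, against 22.5 FPKM. Both cRNA28250 libraries were above c5NC for both genes, with replicate 1 well above replicate 2. Log2 fold changes were 0.82 ± 0.36 for LOXL1 and 1.02 ± 0.44 for LOXL2 (limma adjusted p = 0.222 and 0.216). Without cRNA28250 replicate 2 they were 1.22 and 1.63 and both were called (limma adjusted p = 0.00858 and 0.000977; up to 0.611 and 0.435 over 13 alternatives). LOXL3, like LOX, was lower in both cRNA28250 libraries, with 25.7 and 28.7 FPKM, against 41.0 FPKM in c5NC, a log2 fold change of −0.58 that was not called (limma adjusted p = 0.210; unadjusted 0.0477).

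The makeup of the family differed accordingly between libraries. LOX made up 32.0% and 36.6% of the summed FPKM of LOX, LOXL1, LOXL2 and LOXL3 in cKDmix and 28.2% and 39.98% in c3NC. Its share was 32.3% and 45.9% in cRNA28250, against 78.9% in c5NC. The sum over the 4 genes was 586 and 560.1 FPKM in cKDmix, 538 and 648 FPKM in c3NC, 511 and 369.6 FPKM in cRNA28250 and 804 FPKM in c5NC. LOX was thus the leading member of the family in c3NC replicate 2, cRNA28250 replicate 2 and c5NC, and LOXL1 in the other 4 libraries.

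**Figure D3:**
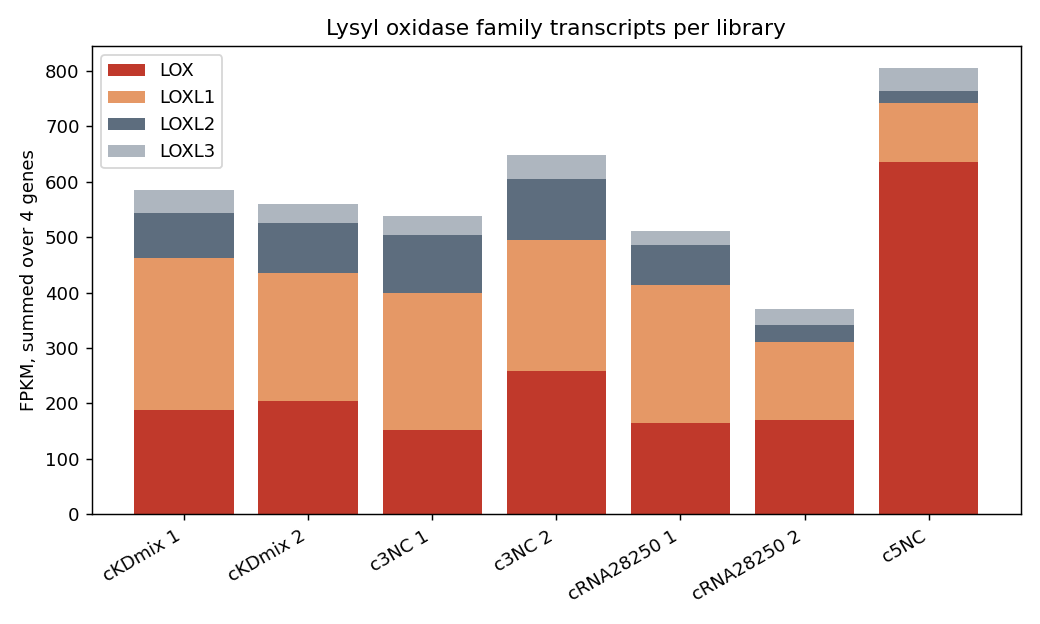
Summed FPKM of LOX, LOXL1, LOXL2 and LOXL3 (stacked bars, vertical axis from 0) in each of the 7 libraries. LOX makes up 78.9% of the c5NC bar and 28.2% to 45.9% of the other bars.

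MFAP4, FBLN5, EFEMP2 and FBN1 were not called in cRNA28250 against c5NC. MFAP4 had 275 and 226 FPKM in cRNA28250, against 157 FPKM in c5NC, a log2 fold change of 0.66 ± 0.27 (limma adjusted p = 0.190). FBLN5 had 1.39 and 1.69 FPKM in cRNA28250, against 0.71 FPKM in c5NC (log2 fold change 0.57 ± 0.25, limma adjusted p = 0.228). Both genes were higher in both cRNA28250 libraries than in c5NC. EFEMP2 had 40.65 and 43.9 FPKM in cRNA28250, against 50.5 FPKM in c5NC, with a log2 fold change of −0.25 that was not called (limma adjusted p = 0.540). Against c3NC, EFEMP2 (−0.83, limma adjusted p = 0.0446) and FBLN5 (−1.01, limma adjusted p = 0.0382) were called lower in cRNA28250. MFAP4 (0.78) and FBN1 (−1.38) were not called there. FBN1 had 87.6 and 33.5 FPKM in cRNA28250, against 71.4 FPKM in c5NC, so that its replicates lay on either side of the control. FBN1 had the largest gap between cRNA28250 replicates of any member, 1.36 on the log2 scale. Its log2 fold change was −0.39 with all libraries, 0.29 without replicate 2 and −1.07 without replicate 1, where it was called (limma adjusted p = 0.0164; 0.0164 to 0.889 over 13 alternatives).

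**Figure D4:**
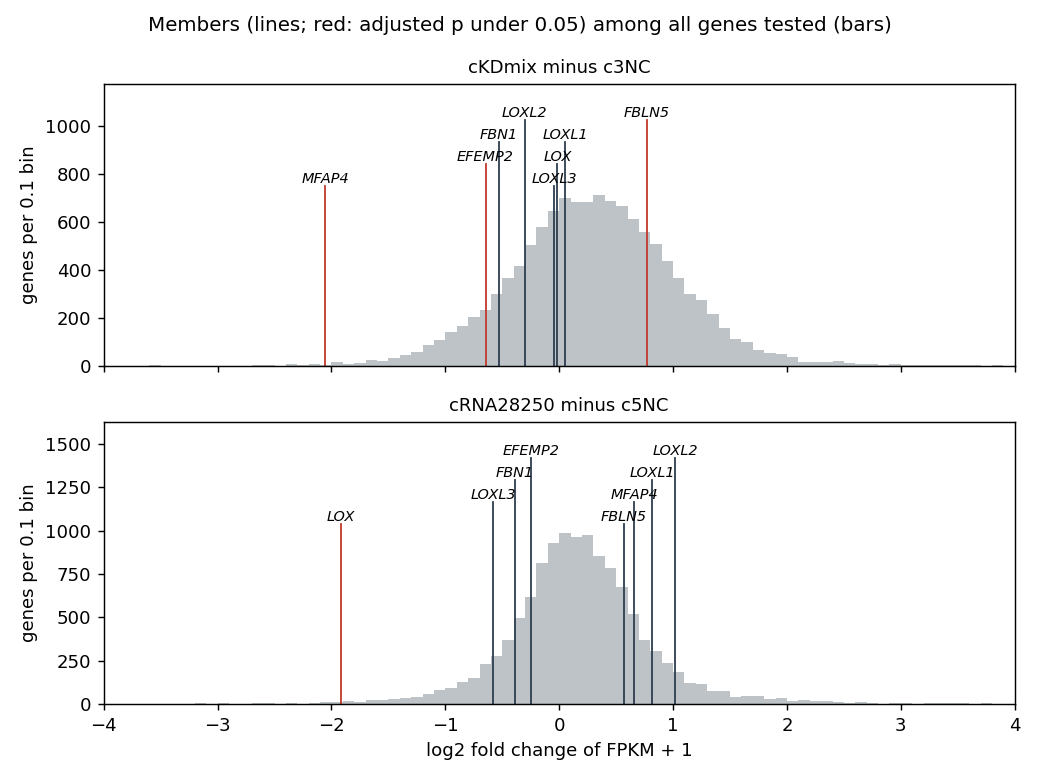
Number of genes tested per bin of log2 fold change (grey bars, vertical axes) for cKDmix minus c3NC and cRNA28250 minus c5NC, with the 8 members as lines (red where the adjusted p is under 0.05). MFAP4 at −2.05 in knockdown and LOX at −1.92 in overexpression lie in the lower tails; the other members lie between −0.65 and 0.77 in knockdown and between −0.58 and 1.02 in overexpression.

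Whether a gene responded differently to knockdown and to overexpression was tested as the difference of the effects. MFAP4 and LOX passed, 2 of 8 members, where 7.7% of all genes did. MFAP4 had a log2 effect of −2.05 in knockdown and 0.66 in overexpression, a difference of −2.71 ± 0.34 (limma adjusted p = 0.00529). Without cKDmix replicate 2 the difference was −2.59 and the call was lost (limma adjusted p = 0.0588; 0.000148 to 0.0588 over 11 alternatives). LOX had −0.02 in knockdown and −1.92 in overexpression, a difference of 1.90 ± 0.44 (limma adjusted p = 0.0420), which rests on the c5NC library. The LOX call was lost with median-ratio scaling (1.74, limma adjusted p = 0.0518). It was also lost without c3NC replicate 1 (1.52, 0.162), cKDmix replicate 1 (1.97, 0.140) or cKDmix replicate 2 (1.84, 0.189; limma adjusted p 0.00734 to 0.189 over 11 alternatives).

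The control groups differed from each other in these genes, which bears on every value set against c3NC or against c5NC. In c3NC against c5NC, FBLN5 and LOXL2 were higher and LOX was lower, 3 of 8 members, where 5.8% of all genes tested were called. LOXL2 had 103 and 109 FPKM in c3NC, against 22.5 FPKM in c5NC, a log2 difference of 2.19 ± 0.44 (limma adjusted p = 0.0308). FBLN5 was at 4.14 ± 0.750 FPKM in c3NC (SD, n = 2) and 0.71 FPKM in c5NC, with a log2 difference of 1.58 (limma adjusted p = 0.0131). LOX was at 205 FPKM in c3NC and 635 FPKM in c5NC, with a log2 difference of −1.67 (limma adjusted p = 0.0328). Without c3NC replicate 1, cKDmix replicate 1 or cKDmix replicate 2 none of the 3 was called. Without c3NC replicate 2 only LOX was, and without either cRNA28250 replicate 5 members were called, FBN1 and LOXL1 in addition. The cKDmix and cRNA28250 libraries are not compared here, so leaving any out did not change the log2 differences. It changed the estimate of the spread and the set of genes tested. This comparison of controls shares its libraries with the comparisons above, so its values are not independent of theirs.

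Ordered by mean level over the groups, most neighbours did not pass the test of their difference. FBLN5 had 7.73 FPKM in cKDmix, 4.14 in c3NC, 1.54 in cRNA28250 and 0.71 FPKM in c5NC, and both upper steps passed the test (limma adjusted p = 0.0255 and 0.0382), while the lowest step did not. MFAP4 had 34.2 FPKM in cKDmix, 145 in c3NC, 250.3 in cRNA28250 and 157 FPKM in c5NC, and of its steps only the lowest, between cKDmix and c3NC, passed. LOX was separated at the top step, between c5NC and c3NC. No step of FBN1, EFEMP2, LOXL1, LOXL2 or LOXL3 passed. Set directly against each other, cKDmix and cRNA28250 differed in MFAP4, 7.33-fold lower in cKDmix (log2 difference −2.84 ± 0.22, limma adjusted p = 0.000746). The mean FPKM of FBLN5 was 5.02-fold higher in cKDmix than in cRNA28250. On log2(FPKM + 1), which draws low values together, its difference was 1.78 ± 0.21 (limma adjusted p = 0.00315). MFAP4 and FBLN5 were 2 of 8 members, where 11.7% of all genes tested were called.

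Lists of related genes were described by their counts, to be read against the 34.4% of all genes called in knockdown (26.8% higher, 7.56% lower) and the 7.62% called in overexpression. Of 15 further microfibril genes, 12 were tested; 3 were called higher and 2 lower in cKDmix against c3NC, and 2 higher and 1 lower in cRNA28250 against c5NC. ADAMTSL4, a secreted protein that binds fibrillin microfibrils, was lower in both. It had 3.11 and 3.86 FPKM in cKDmix, against 11.7 and 18.5 FPKM in c3NC (log2 fold change −1.81, limma adjusted p = 0.00463). It had 2.75 and 2.61 FPKM in cRNA28250, against 9.74 FPKM in c5NC (−1.55, limma adjusted p = 0.0236). ADAMTSL5 was higher in both, with log2 fold changes of 0.93 and 1.01, and MFAP3 was higher in knockdown (0.91). ADAMTS6 was called higher there too (1.19), at 1.94 and 2.51 FPKM in cKDmix and 0.37 and 0.45 FPKM in c3NC. Elsewhere only cRNA28250 replicate 2 (1.32 FPKM) reached 1 FPKM. ADAMTS6 thus passed the filter through the group in which it was high, so its call is not independent of the filter. LTBP4, a latent TGF-beta binding protein needed for elastic fibre assembly in mice, was the other gene lower in knockdown (−1.51), and MFAP5 the other gene higher in overexpression (2.29); both were chosen after their values were seen. The list medians were 0.045 in knockdown and 0.40 in overexpression, against 0.30 and 0.16 over all genes.

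Of 10 other fibulins and emilins, 6 were tested, and 3 were higher and 0 lower in cKDmix against c3NC. FBLN7, a secreted fibulin that supports cell adhesion, had 36.7 and 34.7 FPKM in cKDmix, against 3.64 and 4.79 FPKM in c3NC (log2 fold change 2.82, limma adjusted p = 0.00245). cRNA28250 held 15.8 and 30.6 FPKM of FBLN7 and c5NC held 23.8 FPKM, so the c3NC libraries were the lowest. EFEMP1, or fibulin-3, and HMCN1, or hemicentin-1, had log2 fold changes of 1.06 and 1.10. EFEMP1 was also lowest in c3NC, at 4.90 and 5.17 FPKM, with 21.7 and 16.7 FPKM in cRNA28250 and 32.55 FPKM in c5NC. In cRNA28250 against c5NC 1 gene was higher, HMCN1 (1.30, limma adjusted p = 0.0493), at 5.5 and 6.8 FPKM in cRNA28250 and 1.90 FPKM in c5NC. c3NC, at 6.20 and 9.94 FPKM, averaged more HMCN1 than cRNA28250, so the direction depends on the control. The list medians were 0.84 in knockdown and −0.35 in overexpression.

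Genes that serve the lysyl oxidases or prepare collagen for crosslinking were tested for 12 of 14 listed. In cKDmix against c3NC, 3 were higher and 2 lower. LOXL4, the remaining lysyl oxidase, had 4.71 and 4.42 FPKM in cKDmix, against 1.13 and 1.18 FPKM in c3NC (log2 fold change 1.37, limma adjusted p = 0.00488). It had 2.82 and 3.38 FPKM in cRNA28250 and 5.20 FPKM in c5NC, so c3NC was the lowest group. PLOD2, which hydroxylates collagen lysines, was also higher (0.88, limma adjusted p = 0.0269), as was TLL1 (0.68), while TLL2 (−1.14) and FN1 (−2.11) were lower; the last 3 were chosen after their values were seen. In cRNA28250 against c5NC 2 were higher and 0 lower. BMP1, the protease that releases the active LOX enzyme from its precursor, had 97.7 and 56.6 FPKM in cRNA28250, against 21.5 FPKM in c5NC (1.74, limma adjusted p = 0.0211). BMP1 was thus lowest in the library in which LOX was highest. c3NC, at 90.55 and 75.6 FPKM, averaged slightly more BMP1 than cRNA28250. PCOLCE2, an enhancer of that family of proteases, was the other (1.78, limma adjusted p = 0.0185). The list medians were −0.021 in knockdown and 0.43 in overexpression.

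Proteases that cleave elastin, and their inhibitors, were tested for 10 of 17 listed; 3 were higher and 2 lower in cKDmix against c3NC. CTSK, or cathepsin K, a potent elastin-degrading protease, had 495 and 448.5 FPKM in cKDmix, against 208 and 236 FPKM in c3NC (log2 fold change 1.08, limma adjusted p = 0.0137). CTSK was also the 1 gene called in overexpression, with 124 and 175 FPKM in cRNA28250, against 39.3 FPKM in c5NC (1.88, limma adjusted p = 0.0101). The cRNA28250 libraries were below both c3NC libraries in CTSK, so that direction, too, depends on the control. TIMP3 was higher in knockdown (4.38), and so was CTSS (1.36), chosen after its values were seen; CTSL (−0.97) and MMP14 (−1.79) were lower. Of 10 genes of the elastin receptor complex and integrins, all tested, ITGAV was higher in knockdown (1.13) and LGALS3 (−1.89) and ITGB5 (−1.05) were lower. In overexpression limma called 0 of these 10, and 2 had an unadjusted p under 0.05. The list medians were 0.21 and 0.36 in knockdown and 0.41 and 0.19 in overexpression.

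**Figure D5:**
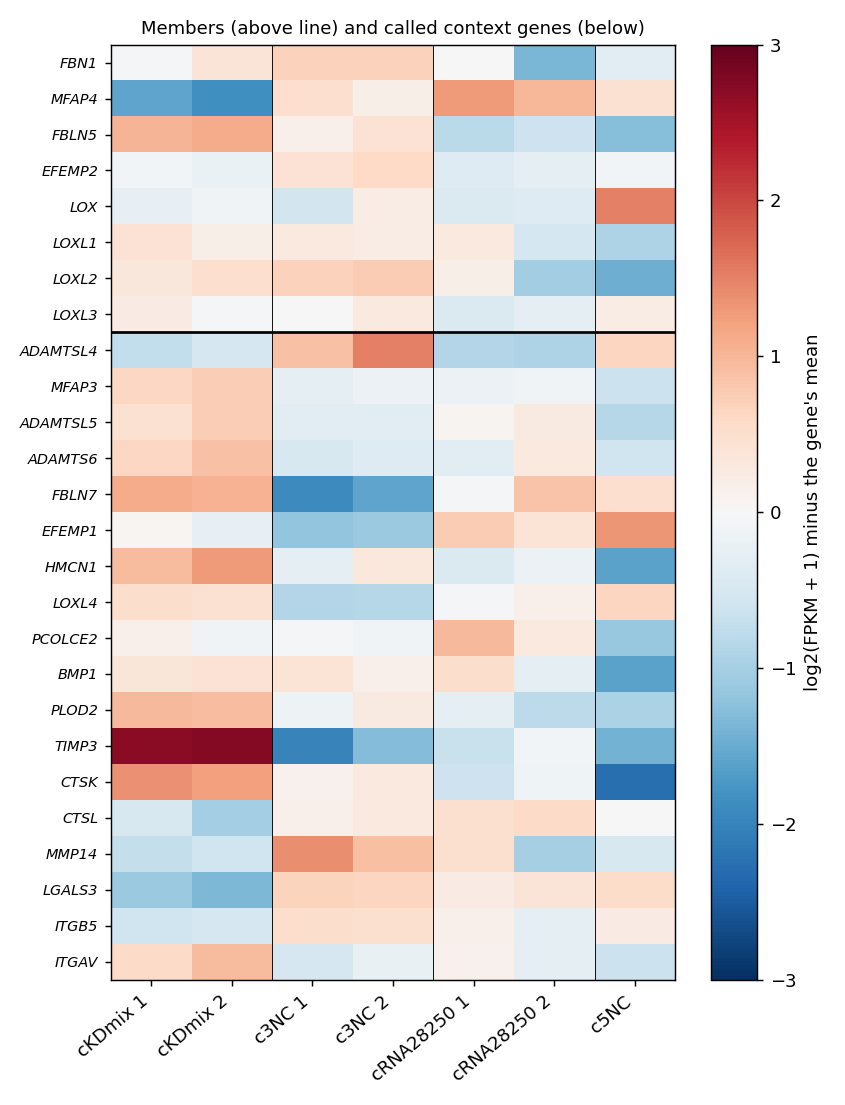
Log2(FPKM + 1) minus the mean of each gene over the 7 libraries (colour scale) for the 8 tested members above the line and the called genes of the context lists below it; columns are libraries by group. MFAP4 is low in both cKDmix columns, where TIMP3 and FBLN7 are high, and LOX is high in the c5NC column, where BMP1 and CTSK are low.

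The genes with profiles nearest to LOX over the 7 libraries, among 7532 candidates, were VASP, TXNIP, BTG2, FAM46B and FAF1. Their root mean square distances on the centred log2 scale ran from 0.235 to 0.260. LOXL3, the nearest other member, was at 0.564, but was the nearest of far fewer genes. Each was highest in c5NC, which follows from the choice, because LOX itself was highest there. TXNIP, for example, was at 213 and 208 FPKM in cKDmix, 222 and 273 FPKM in c3NC, 152 and 139 FPKM in cRNA28250 and 649 FPKM in c5NC. Nearest to FBN1 were ANGPTL2, TXNDC5, COL3A1, PTK7 and COL5A2, at distances from 0.214 to 0.291, with LOXL2 the nearest member at 0.487. COL3A1, a fibrillar collagen chain and one of the fibroblast markers above, had 1329.5 and 1469 FPKM in cKDmix, 2193 and 2220.1 FPKM in c3NC, 1779 and 636 FPKM in cRNA28250 and 1652 FPKM in c5NC. It shared with FBN1, whose profile it was chosen to resemble, the low value in cRNA28250 replicate 2. ELN was in the rule for this search and was left out, because it did not pass the filter.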

How the data were processed

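RNA-seq was analysed in 7 libraries (cKDmix 2, c3NC 2, cRNA28250 2, c5NC 1). The authors deposited 1 FPKM value per gene and library, per the file headers. The sources used here name no aligner, gene model, build or strandedness. The depth of the libraries is unknown, so no counting interval is given. A RefSeq table of assembly ARS1.2 named 17007 of the 17374 identifiers and served for names only. A gene was tested where 2 or more libraries held 1 FPKM or above (12180 genes), on log2(FPKM + 1). One fit with limma 3.58.1 in R 4.3.3 (eBayes with trend, two-sided) took all 7 libraries and a mean for each group. It had 3 residual and 4.66 prior degrees of freedom, with Benjamini-Hochberg adjustment over all genes tested and calls at an adjusted p under 0.05. The lone c5NC library was assumed to spread like the rest. The fit was tested on simulated data with the same spread for all genes and libraries, which cannot speak to spread that differs between groups.

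The 10 genes, the 5 context lists and the 7 marker lists were chosen with earlier results of these data known. Named are the 10 members; up to 4 called genes per context list, by smallest p in either effect; and, for LOX and FBN1, the 5 genes of at least 5 FPKM on average with the nearest profile. ELN was in that rule too and was not tested. Genes of the marker lists, and any other gene, are marked in the text as picked with their values in view. Alternatives tried were a pseudocount of 0.1, no filter, quantile and median-ratio scaling, fitting the compared groups alone, a block for the replicate number, the other control, and leaving out each library. The labels do not say whether replicates were separate cultures or animals; p-values then reflect the spread between these libraries alone, which may be technical.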

Additional observations from a re-analysis of the deposited data

Results flagged for a closer look

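The effects of knockdown and of overexpression differed, by a test of the difference itself, in 2 members. For MFAP4 the difference of the log2 effects was −2.71 (limma adjusted p = 0.00529), with both cKDmix libraries below both c3NC libraries and both cRNA28250 libraries above the c5NC library. For LOX it was 1.90 (limma adjusted p = 0.0420), with both cRNA28250 libraries below the c5NC library and the cKDmix libraries between those of c3NC. The MFAP4 call was lost in 1 of 11 alternatives. The LOX call was lost in 6 of 11, and its value rests on the 1 c5NC library. Groups without overlap were found in 78% of all genes tested in cKDmix against c3NC, and in 71.3% in cRNA28250 against c5NC.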

How the results depend on the processing

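The depth is unknown and c5NC has 1 library, without which the overexpression could be set against c3NC only. Of 400 values of single members under alternatives, 321 kept their direction and side of the threshold, 40 lost a call, 18 gained one and 21 turned direction. Members called in knockdown numbered 3. They numbered 2 without a filter, where 17.5% of all genes were called. FBLN5 lost its call there (limma adjusted p = 0.0550, and 0.00179 to 0.282 over its alternatives). With quantile normalization and with median-ratio scaling there were 2 each (22.4% and 30.1% of all genes). With only the groups compared there were 4 (54% of all genes), and against c5NC 5 (21.8%). In overexpression there was 1 (7.62% of all genes), with 0 without a filter (4.55%) and 0 with only the groups compared (2.74%). Against c3NC there were 2 (4.31%). For the difference of effects there were 2 (7.7% of all genes), with 1 without a filter (3.84%), 1 with median-ratio scaling and 1 with the replicate block. Between controls there were 3, with 1 without a filter, 1 with the replicate block and 6 with only these groups. Leaving out 1 library gave 0 to 4 members called in knockdown, 0 to 3 in overexpression, 0 to 4 for the difference and 0 to 5 between controls. The cause of these changes was not tested. Over all genes, 4191 were called in knockdown with every library. The count was 207 and 39 when replicate 1 and replicate 2 of cKDmix were dropped, 387 and 1283 when those of c3NC were, and 6410 and 6392 when those of cRNA28250 were. Quantile normalization called 2729 genes, 49.1% of them higher, and median-ratio scaling 3668, 51.3% higher, against 78.0% as deposited. In overexpression these shares were 51.7%, 53.5% and 66.6%.

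Log2 values that turned direction in knockdown were LOX (0.21 with quantile normalization, and −0.40 to 0.37 when 1 library was left out, 0.048 without cKDmix replicate 1), LOXL1 (−0.29 with median-ratio scaling and −0.075 to 0.18 when 1 library was left out) and LOXL3 (−0.20 to 0.11 when 1 library was left out, 0.096 without cKDmix replicate 2). Against c5NC they were FBN1 (0.46) and LOXL2 (1.89, limma adjusted p = 0.0233; 0.0233 to 0.801 over its alternatives). In overexpression FBN1 turned without cRNA28250 replicate 2 (0.29; −1.07 to 0.29 when 1 library was left out), and against c3NC FBLN5 (−1.01), LOXL1 (−0.37) and LOXL2 (−1.17) turned. For the difference of effects FBLN5 turned with a pseudocount of 0.1 (−0.12) and median-ratio scaling (−0.0020), and FBN1 with quantile normalization (0.052), the replicate block (0.0089), without cKDmix replicate 1 (0.079) and without cRNA28250 replicate 1 (0.54; −0.82 to 0.54 when 1 library was left out). Between controls LOXL3 turned without c3NC replicate 1 (0.088; −0.22 to 0.088 when 1 library was left out) and MFAP4 without c3NC replicate 2 (0.038; −0.28 to 0.038). Of these, LOXL2 in knockdown and FBLN5 in overexpression were called at the turned value. Same-numbered libraries deviated together with r = 0.111 (cKDmix and c3NC), −0.152 (cKDmix and cRNA28250) and 0.283 (c3NC and cRNA28250) over 12180 genes, so the numbers were not taken to pair them. With the replicate block LOX lost its call for the difference of effects (1.75, limma adjusted p = 0.0743; 0.00734 to 0.189 over its alternatives), LOX and LOXL2 lost theirs between controls, and 3 members were called in knockdown and 1 in overexpression.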

Other observations

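The levels of some genes near these pathways are given here; they were chosen after their values were seen. POSTN, a matricellular protein that helps lysyl oxidase activation in mice, was at 0.64 and 0.68 FPKM in cKDmix, 0.08 and 0.06 FPKM in c3NC, 0.19 and 0.30 FPKM in cRNA28250 and 4.37 FPKM in c5NC, and did not pass the filter. ATP7A, a copper pump that supplies secreted enzymes, had 0.67 and 2.69 FPKM in the cKDmix libraries, against 0.39 to 0.83 FPKM elsewhere. MFAP5, a microfibril-associated glycoprotein, was at 1029 and 969.8 FPKM in cKDmix, 776 and 1178 FPKM in c3NC, 796 and 1718 FPKM in cRNA28250 and 238 FPKM in c5NC, above every one of the 10 members in each of the first 6 libraries.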
